A study of Rattus norvegicus with 6 samples.

Results

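The mitochondrial carriers of the SLC25 family were followed in the livers of 3-week-old Sprague-Dawley rat pups. Members were the genes whose annotated symbol began with Slc25a, together with Ucp1, Ucp2 and Ucp3 and without Slc25a1, Slc25a13, Slc25a15 and Slc25a20. Each gene was read from the probe set with the highest mean over all 6 arrays. This gave 39 genes on 52 probe sets, of 14217 genes with a probe set of their own. Of the 39, 32 lay above the brightness limit of 5.83 on the log2 scale and were tested among 10372 genes. The other 7 were too dim.

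Carriers of this family sit in the inner mitochondrial membrane, with a few in the outer membrane or in peroxisomes. Most exchange a metabolite of the matrix for one of the cytosol, so that ATP, phosphate, keto acids, amino acids, cofactors and iron can cross. In hepatocytes they link the matrix steps of urea synthesis, gluconeogenesis, lipid synthesis and amino acid breakdown to the cytosol. Uncoupling proteins form a branch of the family, whose founding member lets protons leak back into the matrix of brown adipocytes.

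The study compared pups at weaning whose dams had been fed a high fat diet with pups whose dams had been fed standard chow, with 3 arrays per diet and 1 array per liver sample. The question was how the mother's diet relates to the liver of the offspring. Total RNA of whole liver was hybridised to Affymetrix 3' expression arrays. The diet is named for the dams only, and the labels do not name the litters, so whether pups of one diet shared a dam is not known. The p-values rest on the spread between these samples, which may leave out spread between dams.

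All 7 hepatocyte markers on the arrays were above the limit, and albumin, Alb, lay at 14.46 to 14.77 on every array. Alb was the 1 marker of the 7 that was higher in high fat pups, at 0.049. The other 6 were lower, and only Ass1 among them had separate groups, at -0.63 (SE 0.15). The summed linear signal of the 7 was 174400 to 189100 in high fat pups and 192500 to 201400 in controls. High fat replicate 1 also carried transcripts of exocrine pancreas. The summed linear signal of 9 pancreas markers was 43750 there, against 349 to 467 in the other control and high fat arrays, and Prss1 was at 13.08 against 4.10 to 5.30. High fat replicate 3 stood apart in Xist, at 4.45 against 12.46 to 13.31, and in the Y-linked Eif2s3y, at 11.14 against at most 3.99. Control replicate 3 had the largest 3' minus 5' difference in the rat actin and GAPDH control sets, a measure of RNA integrity, at 3.06 against 1.92 to 2.46. For the carriers given by array, the change without each array in turn is plotted and printed in part, and the gene lists were not refitted without these arrays. The 4 skeletal muscle markers on the arrays were all below the limit. The 5 markers of sinusoidal endothelium were all lower in high fat pups, with a summed signal of 8464 to 10660 against 14610 to 16520 in controls. Of these, 4 had separate groups, while Pecam1, at -0.088, overlapped between the diets. The part of cell makeup in the results that follow was not tested.

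No carrier passed the test over all genes. The smallest adjusted p in the family was 0.131 in limma, for Slc25a21, while 4 of the 10372 genes passed (0.0386%). At an unadjusted p under 0.05 there were 8 carriers of 32, which is 25%, against 14% of all genes tested. Of these 8, 5 were higher in pups of high fat dams (all genes, 6.55%) and 3 were lower (all genes, 7.49%). A difference of at least 1.5-fold at that p was found in 6 carriers, which is 18.8% against 6.69% of all genes. Of these, 4 were higher (all genes, 3.34%) and 2 lower (all genes, 3.36%). The 3 arrays of one diet lay entirely on one side of the other 3 in 6 carriers, also 18.8%, against a background of 20.8%. They were 3 higher (all genes, 9.26%) and 3 lower (all genes, 11.6%). By the last measure the family lay close to the background. The tested carriers are those bright enough in these samples, so these shares do not cover the 7 dim ones.

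The family as a whole had no common direction. Of the 32, 11 were higher (all genes, 46.9%) and 21, or 65.6%, lower (all genes, 53.1%), and the median log2 change was -0.078 against -0.022 over all genes tested. The median size of the change was 0.19, as in all genes, at 0.191. Relative to the control mean of each gene, the carriers' median was -0.14, 0.15 and 0.015 in control replicates 1, 2 and 3, and -0.024, -0.093 and -0.015 in high fat replicates 1, 2 and 3. The control arrays thus spanned a wider range than the high fat arrays. Control replicate 1 held the lowest value of the 6 arrays for 12 carriers (37.5%, against 16.6% of all genes), and control replicate 2 the highest value for 10 (31.2%, against 16.6%). The SD within groups had a median of 0.28 for the carriers and 0.22 for all genes.

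**Figure D1:**
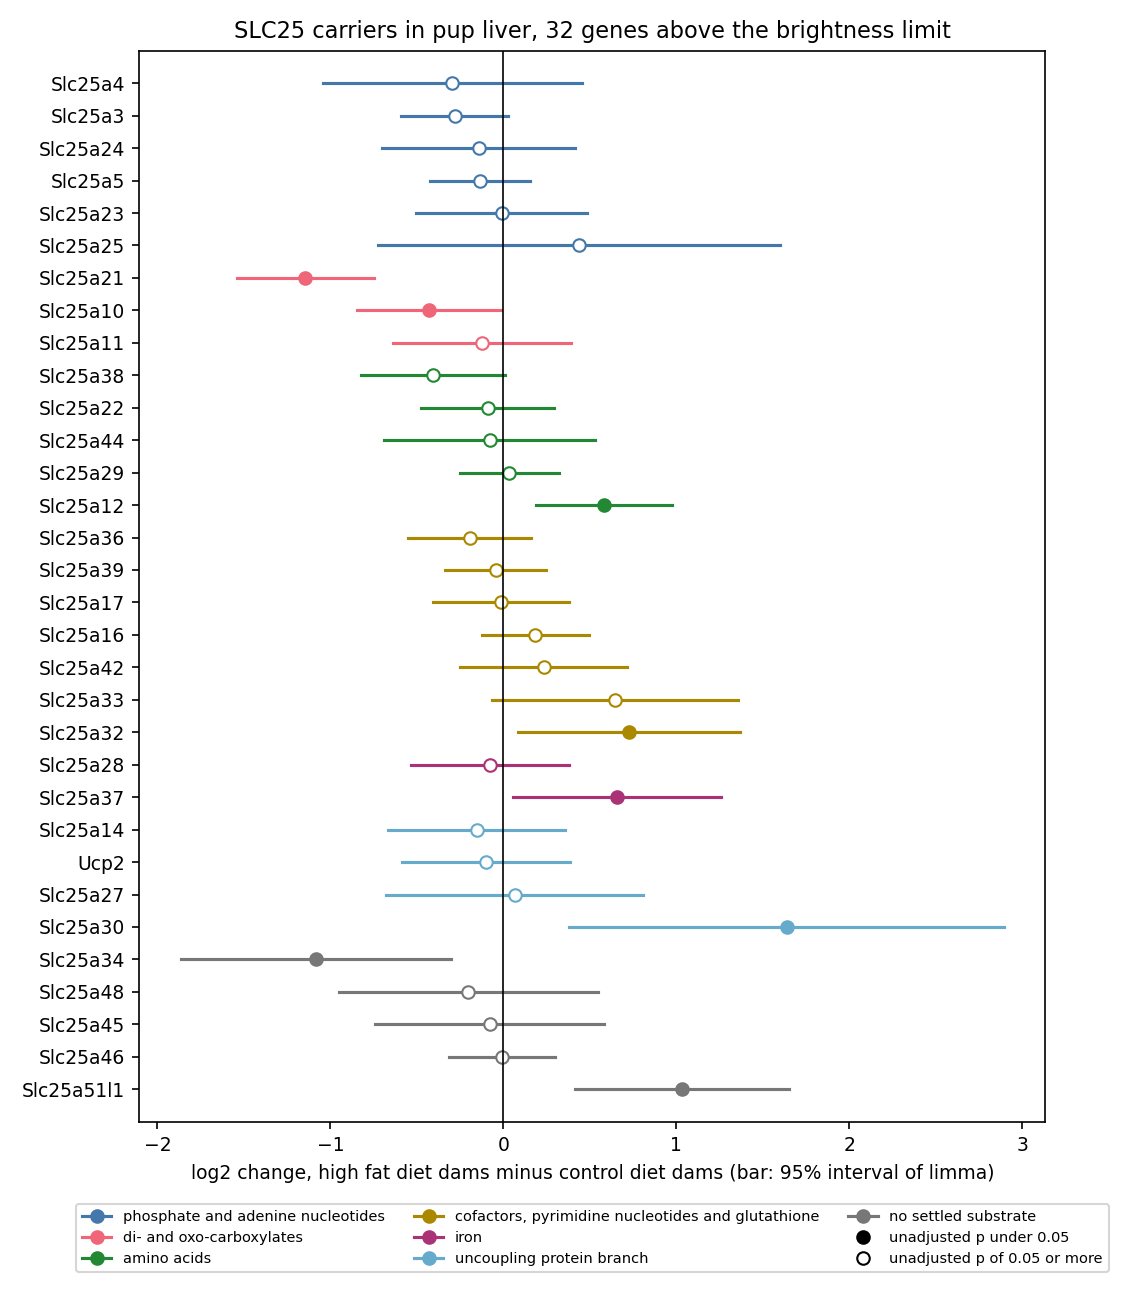
Log2 change of each of the 32 carriers above the brightness limit, high fat minus control diet dams, with limma's 95% interval as the bar, coloured by transported substrate. Filled points mark the 8 carriers at an unadjusted p under 0.05, of which Slc25a30 lies farthest to the right at 1.64 and Slc25a21 farthest to the left at -1.14.

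**Figure D2:**
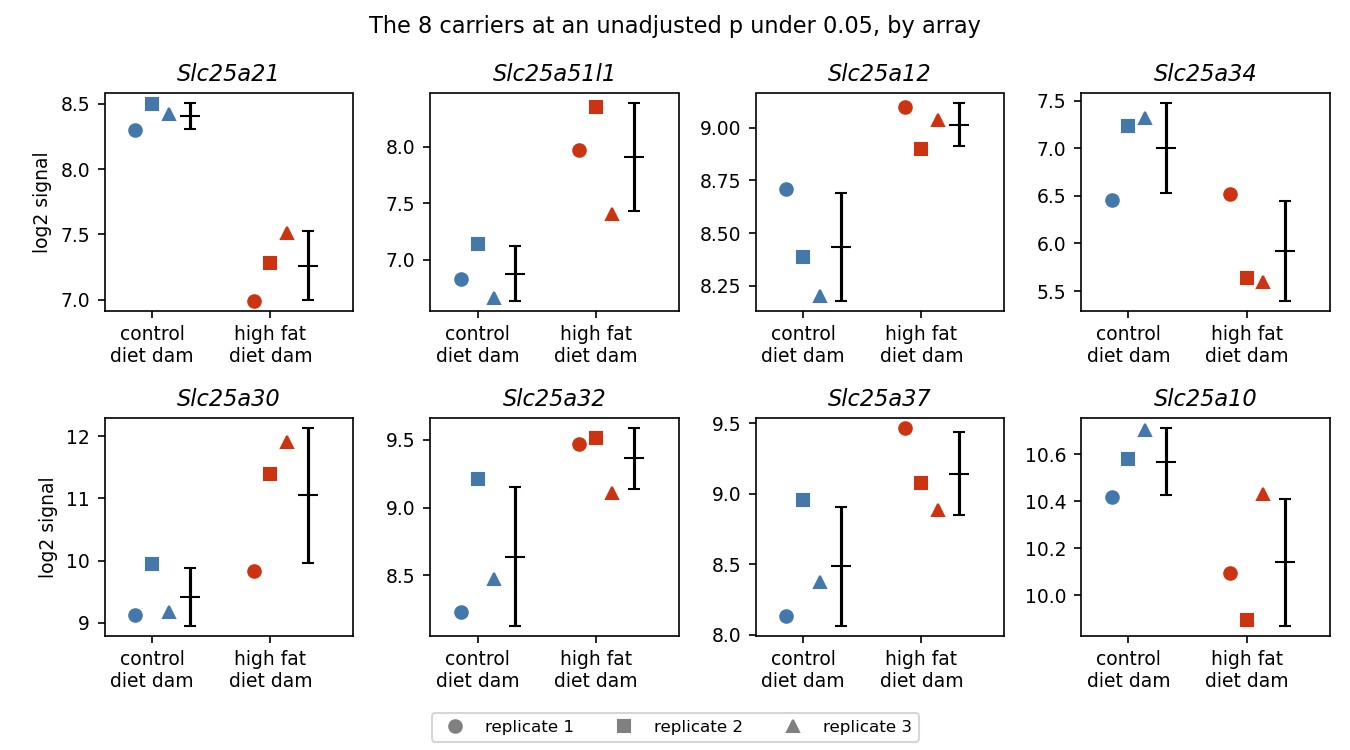
Log2 signal on each array for the 8 carriers at an unadjusted p under 0.05, with the mean and SD of the 3 arrays of a diet in black (each panel has its own axis). The diets do not overlap for Slc25a21, Slc25a51l1 and Slc25a12 and overlap for the other 5.

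Of the 3 carriers of keto acids and dicarboxylates measured, Slc25a21 and Slc25a10 were lower at an unadjusted p under 0.05, and Slc25a11 overlapped between the diets. Slc25a21, the oxodicarboxylate carrier that brings 2-oxoadipate from lysine and tryptophan breakdown into the matrix, had the smallest p of the family. Its log2 signal was 8.30, 8.50 and 8.42 in controls and 6.99, 7.28 and 7.51 in high fat pups, with means of 8.40 ± 0.0985 (SD, n = 3) and 7.26 ± 0.26 (SD, n = 3). Every high fat array lay below every control array. The signal was 2.21-fold lower (log2 change -1.14, SE 0.17, 95% interval -1.54 to -0.75, unadjusted p = 0.000262, limma adjusted p = 0.131). The difference ranged from -1.27 to -1.01 with 1 array left out. The smaller value came from leaving out high fat replicate 1, the larger from leaving out replicate 3.

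Slc25a12, the aspartate-glutamate carrier also called aralar, also had separate groups, but in the other direction. The stretches of 250 bases before the annotated start of these 2 genes were picked for printing after their CpG content was seen, to show how far the carriers differ in it. They are printed 5' to 3' on the gene's strand from RefSeq, build GRCr8, with CpG dinucleotides in capitals. Slc25a21 is at chr6:80437721-80437970 on the minus strand and Slc25a12 at chr3:76599537-76599786, also on the minus strand.
Slc25a21: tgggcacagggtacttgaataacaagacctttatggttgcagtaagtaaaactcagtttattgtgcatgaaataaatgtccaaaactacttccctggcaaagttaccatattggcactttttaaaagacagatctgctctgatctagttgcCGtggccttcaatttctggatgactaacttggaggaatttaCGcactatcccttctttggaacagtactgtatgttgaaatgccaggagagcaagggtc
Slc25a12: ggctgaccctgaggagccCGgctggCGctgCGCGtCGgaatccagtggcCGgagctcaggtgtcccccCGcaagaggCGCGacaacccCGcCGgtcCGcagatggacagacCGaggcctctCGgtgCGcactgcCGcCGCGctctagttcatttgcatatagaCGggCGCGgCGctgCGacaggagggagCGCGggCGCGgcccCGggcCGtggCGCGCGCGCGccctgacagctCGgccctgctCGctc
The Slc25a21 stretch held 2 CpG, the third lowest count among the 33 carriers with a promoter in the table, and the Slc25a12 stretch held 36, the highest. The median was 13 for the 33 carriers and 8 for the 21851 promoters of the table. Core motifs were sought by their letters, on both strands, from 250 bases before to 50 after the start. The SREBP motif TCACNCCAC was in 2 of the 33 carriers, Slc25a24 and Ucp2, against 1.03% of all promoters. The NRF1 motif was in 1 (Slc25a31; 5.67% of all), and ACCGGAAG, the GABPA motif, in 1 (Slc25a38; 3.02% of all). The PPAR motif (0.0229% of all), the ERR motif TCAAGGTCA (0.366%), which shares the letters AGGTCA with it, and the ATF4 motif TGATGCAA (0.728%) were in none of the 33 windows.

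The dicarboxylate carrier Slc25a10 exchanges malate or succinate for phosphate. It was at 10.42, 10.58 and 10.71 in controls and at 10.09, 9.90 and 10.43 in high fat pups, where replicate 3 reached the control range. The log2 change was -0.43 (SE 0.18, unadjusted p = 0.0451, limma adjusted p = 0.346). The unadjusted p was 0.0946 without control replicate 2, 0.122 without control replicate 3, 0.105 without high fat replicate 1 and, leaving out replicate 2 instead, 0.142. The mean of both probe sets gave -0.27 (unadjusted p = 0.143) and the RNA integrity covariate -0.31 (unadjusted p = 0.147). The unadjusted p was 0.0760 with array weights, 0.0643 with no brightness filter, 0.0562 with the lowest 20% left out and 0.0501 with the replicate block. A dimmer probe set of Slc25a10 was at -0.11. Slc25a11, which exchanges oxoglutarate for malate in the malate-aspartate shuttle, was at 10.79, 11.44 and 11.28 in controls and 11.19, 10.76 and 11.19 in high fat pups, with overlapping groups. Its difference of -0.12 (SE 0.22) turned to 0.013 without control replicate 2, 0.0225 without high fat replicate 2 and 0.048 with the RNA integrity covariate.

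Among carriers of amino acids, Slc25a12 was higher and the other 4 measured did not pass even the unadjusted threshold. Aralar carries out of the matrix the aspartate that the malate-aspartate shuttle needs. It is known as the form of heart and brain, while citrin, the product of Slc25a13, is the main form of adult liver. Slc25a12 was at 8.71, 8.39 and 8.20 in controls and 9.10, 8.90 and 9.04 in high fat pups, with means of 8.43 ± 0.26 (SD, n = 3) and 9.01 ± 0.10 (SD, n = 3). All high fat arrays were above all controls. The signal was 1.495-fold higher (log2 change 0.58, SE 0.17, 95% interval 0.19 to 0.97, unadjusted p = 0.0102, limma adjusted p = 0.240), and 0.47 to 0.72 with 1 array left out. With only high fat replicate 2 kept in its group, the difference was 0.47, a value from a single high fat array.

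The matrix importer of glycine for haem synthesis, Slc25a38, was at 9.30, 9.12 and 9.67 in controls and 9.06, 8.99 and 8.81 in high fat pups. The groups did not overlap, and the difference was -0.41 (SE 0.18, unadjusted p = 0.0542, limma adjusted p = 0.367). It was -0.26 without control replicate 3, the highest array, and -0.53 without control replicate 2 (unadjusted p = 0.0279). The glutamate carrier Slc25a22, which feeds glutamate to the matrix, was at 12.55, 12.80 and 12.61 in controls and 12.31, 12.61 and 12.77 in high fat pups. Its difference was -0.091 (95% interval -0.48 to 0.29) and turned to 0.032 without high fat replicate 1. Slc25a44, linked to branched-chain amino acids, was at -0.0785 and Slc25a29, a carrier of basic amino acids, at 0.035, with 95% intervals of -0.69 to 0.53 and -0.25 to 0.32.

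Of the 7 carriers of cofactors, nucleotides and glutathione, 4 were higher, and 1 of them, Slc25a32, was at an unadjusted p under 0.05. Slc25a32 brings folate, or in other accounts FAD, into the matrix. It was at 8.23, 9.21 and 8.47 in controls and 9.47, 9.51 and 9.11 in high fat pups, so that control replicate 2 lay inside the high fat range. The difference was 1.65-fold (log2 change 0.73, SE 0.27, unadjusted p = 0.0319, limma adjusted p = 0.314), and its dimmer probe set was at 0.96. The unadjusted p was 0.0983 without control replicate 1, 0.0925 without control replicate 3, 0.0819 without high fat replicate 1 and, leaving out replicate 2 instead, 0.0894. It was 0.0820 with the RNA integrity covariate, 0.0563 with array weights and 0.0520 with no brightness filter. Slc25a33, a carrier of pyrimidine nucleotides, had a difference of 0.64 (SE 0.30, unadjusted p = 0.0697), from controls of 8.90, 9.85 and 9.40 to 10.51, 9.77 and 9.81. Control replicate 2 overlapped there too. Without it the difference was 0.88 (unadjusted p = 0.0249), without control replicate 1 it was 0.40, and without high fat replicate 1, the highest array, it was also 0.40. The related Slc25a36 was at -0.20 on its brighter probe set and 0.34 on its dimmer one.

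Slc25a16 and Slc25a42 are linked to coenzyme A. Slc25a16 had separate groups but a small difference of 0.18 (SE 0.13, limma adjusted p = 0.580). Slc25a42 was at 9.21, 9.36 and 8.96 in controls and 9.08, 9.40 and 9.74 in high fat pups. Its difference was 0.23 (95% interval -0.25 to 0.72). It was 0.40 without high fat replicate 1, 0.13 without control replicate 3 and 0.065 without high fat replicate 3. The glutathione carrier Slc25a39 overlapped between the diets, at 11.52, 11.70 and 11.60 in controls and 11.59, 11.48 and 11.61 in high fat pups, with a 95% interval of -0.34 to 0.25. The peroxisomal Slc25a17 was at -0.015 (-0.41 to 0.38).

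Iron enters the matrix through the mitoferrins. Slc25a37, mitoferrin 1, was at 8.13, 8.95 and 8.37 in controls and 9.47, 9.08 and 8.89 in high fat pups, with control replicate 2 above high fat replicate 3. The difference was 1.58-fold (log2 change 0.66, SE 0.25, unadjusted p = 0.0362, limma adjusted p = 0.326). Its unadjusted p was 0.113 without control replicate 1, 0.0960 without control replicate 3, 0.113 without high fat replicate 1 and, leaving out replicate 2 instead, 0.0646. It was 0.0594 with the replicate block, 0.0622 with the RNA integrity covariate, 0.0607 with array weights and 0.0573 with no brightness filter. Mitoferrin 2, Slc25a28, was at -0.077 (95% interval -0.54 to 0.38). Mitoferrin 1 is the form of red cell precursors, and weanling liver can still hold some. The 4 erythroid markers above the limit, of 8 on the arrays, were all lower in high fat pups, with a median of -0.31. Only Slc4a1 among them had separate groups. Of the dim markers, Rhag and Klf1 had higher means in high fat pups (4.10 against 3.37, 4.74 against 4.31), and Epb42 and Gata1 lower ones. The summed signal of the 8 was 23180 to 31300 in controls and 21720 to 25750 in high fat pups. Most of that sum came from Hbb, at 14.35 to 14.83 on the log2 scale. In whole liver, fewer cells of a type and less RNA per cell cannot be told apart, and the part of these cells in the values of Slc25a37 and Slc25a38 was not tested.

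The carriers of phosphate and adenine nucleotides supply ATP synthase and export its product. Of the 6 measured, 5 were lower and none reached an unadjusted p under 0.05. The phosphate carrier Slc25a3 was at 13.30, 13.55 and 13.57 in controls and 13.19, 13.16 and 13.22 in high fat pups. Its groups did not overlap, at a small difference of -0.28 (SE 0.13, unadjusted p = 0.0689, limma adjusted p = 0.397), which was -0.37 without control replicate 1 (unadjusted p = 0.0331). Slc25a5, the ADP/ATP carrier of dividing and liver cells, was at 14.01, 14.12 and 14.02 in controls and 13.89, 14.01 and 13.85 in high fat pups. The 95% interval of its difference, -0.42 to 0.15, lay inside 1.5-fold either way. Slc25a4, the muscle form, was at 10.47, 11.54 and 11.57 in controls and 11.16, 10.76 and 10.78 in high fat pups. Control replicate 1 was the lowest of the 6 arrays, and without it the difference of -0.30 became -0.66 (unadjusted p = 0.0106). Without control replicate 2 it was -0.12 (unadjusted p = 0.734), without control replicate 3 it was -0.10 (unadjusted p = 0.774), and it was 0.0061 with the RNA integrity measure as a covariate.

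The calcium-dependent ATP-Mg/phosphate carriers adjust the adenine nucleotide pool of the matrix. Slc25a25 varied more than any other tested carrier except Slc25a30, at 10.62, 12.54 and 11.42 in controls and 11.45, 12.03 and 12.42 in high fat pups. The difference of 0.44 (SE 0.49) was -0.017 without control replicate 1 and 0.94 without control replicate 2 (unadjusted p = 0.0420), so that its sign rested on 1 array. Leaving out high fat replicate 1 gave 0.70, and leaving out replicate 3 gave 0.21. Slc25a24 was at -0.14 and Slc25a23 at -0.0097, with 95% intervals of -0.70 to 0.42 and -0.505 to 0.486.

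**Figure D3:**
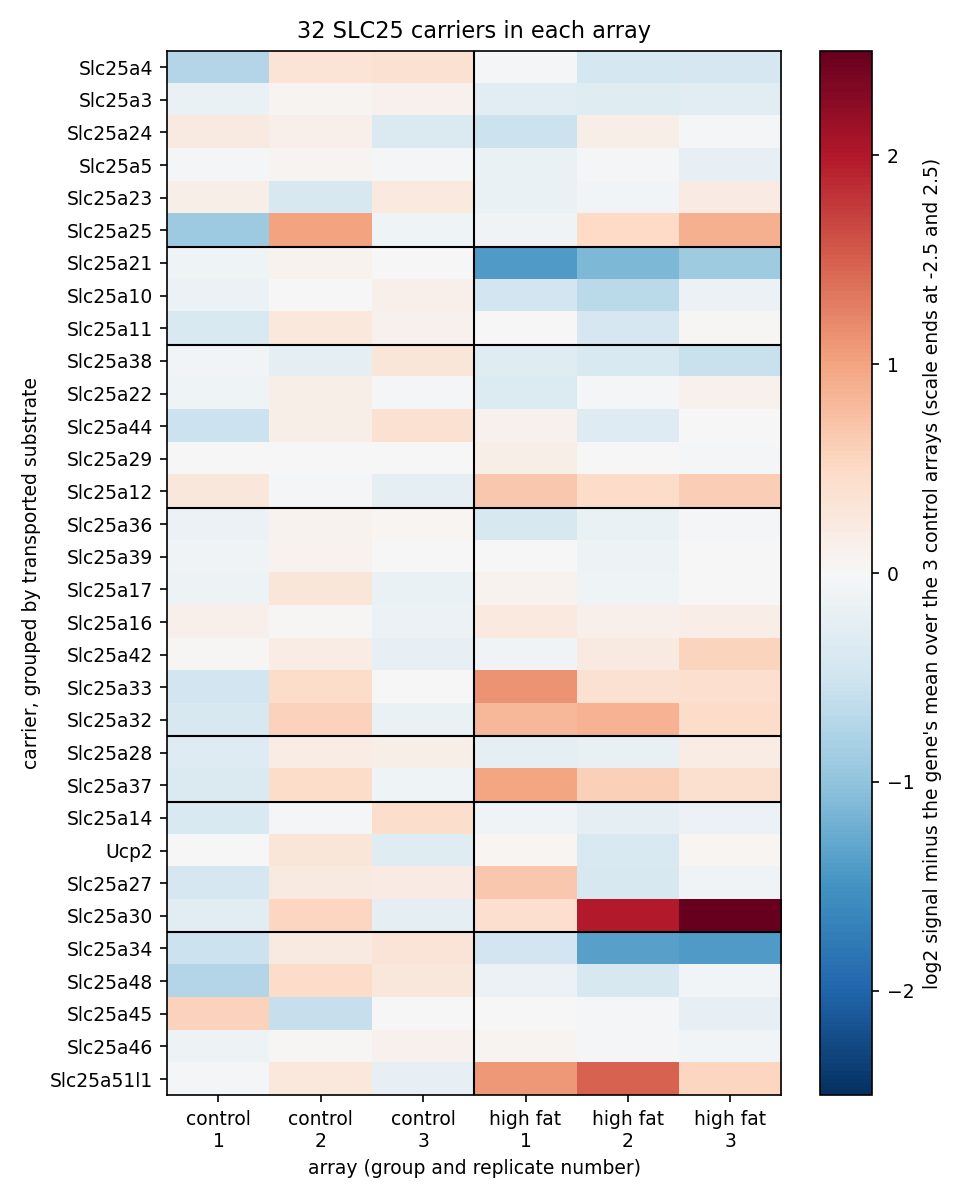
Log2 signal of the 32 tested carriers (rows, in blocks by substrate) on each of the 6 arrays (columns), as the difference from the gene's mean over the 3 control arrays. Slc25a21 is blue on all 3 high fat arrays and Slc25a12 and Slc25a51l1 red on all 3, while the 2 strongest red cells of Slc25a30 belong to high fat replicates 2 and 3, and the control columns 1 and 2 differ in Slc25a25.

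In the uncoupling branch, Slc25a30 had the largest difference of the family. Its product, called kidney mitochondrial carrier protein, is related to the brain carriers Slc25a14 and Slc25a27. It was at 9.13, 9.95 and 9.17 in controls and 9.84, 11.40 and 11.91 in high fat pups. High fat replicate 1 lay inside the control range, and replicates 2 and 3 lay well above it. The difference was 3.11-fold (log2 change 1.64, SE 0.53, 95% interval 0.38 to 2.89, unadjusted p = 0.0180, limma adjusted p = 0.276), and its dimmer probe set was at 0.93. Without high fat replicate 1 it was 2.25. The unadjusted p was 0.0561 without control replicate 1, 0.0575 without control replicate 3, 0.0567 without high fat replicate 2 and, leaving out replicate 3 instead, 0.0523 at a difference of 1.20. With the RNA integrity covariate the difference was 1.39 (unadjusted p = 0.0689).

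Ucp2, which in adult liver is known mainly from Kupffer cells, was at 8.12, 8.42 and 7.82 in controls and 8.16, 7.73 and 8.16 in high fat pups. Its difference was -0.10 (95% interval -0.58 to 0.38), and 0.049 without control replicate 2. The 8 Kupffer cell and macrophage markers on the arrays had a median of -0.0385, and their summed signal was lowest, at 12830, in high fat replicate 2, where Ucp2 was lowest too. Over the other 5 arrays that sum was 15900 to 20890. It was highest in high fat replicate 3, while Ucp2 was highest in control replicate 2. The part of these cells in the values of Ucp2 was not tested. Slc25a14 was at -0.15 and Slc25a27 at 0.064. Ucp1, of brown adipocytes, and Ucp3, of muscle, were below the limit, at means of 3.51 and 5.40 over all arrays.

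Of 5 measured members grouped here without an assigned substrate, 4 were lower and 1 higher. Slc25a34, an orphan close to Slc25a35, was at 6.46, 7.23 and 7.31 in controls and 6.52, 5.64 and 5.59 in high fat pups. Control replicate 1 and high fat replicate 1 were alike, and the other arrays were apart. The difference was 2.12-fold (log2 change -1.08, SE 0.33, 95% interval -1.87 to -0.30, unadjusted p = 0.0137, limma adjusted p = 0.257), and -1.38 without high fat replicate 1. High fat arrays 2 and 3 were below the brightness limit. Slc25a48 was at -0.20 on its brighter probe set and -0.40 on its dimmer one, and Slc25a45 was at -0.080. Slc25a46, an outer membrane protein of mitochondrial shape, was at -0.010 on its brighter probe set (95% interval -0.32 to 0.30) and 0.41 on its dimmer one.

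Slc25a51l1, a gene named for its likeness to the NAD carrier gene Slc25a51, was higher. It was at 6.83, 7.14 and 6.66 in controls and 7.97, 8.35 and 7.41 in high fat pups, with no overlap. The difference was 2.04-fold (log2 change 1.03, SE 0.26, 95% interval 0.41 to 1.65, unadjusted p = 0.00567, limma adjusted p = 0.206), and 0.81 to 1.28 with 1 array left out. Another 2 probe sets carried the symbol Slc25a51 under 2 gene identifiers and so were not read as a gene. The first was at 9.55, 10.05 and 9.58 in controls and 10.43, 10.71 and 10.43 in high fat pups, and both had separate groups, with log2 changes of 0.80 (SE 0.21) and 0.85 (SE 0.19) in a fit over all probe sets. Whether the 3 probe sets read the same transcript was not tested, and the likeness of the genes makes the assignment uncertain.

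Of the 7 dim carriers, 2 had separate groups, against 11.3% of the 3845 genes below the limit. Slc25a35 was at 5.43, 5.79 and 5.58 in controls and 5.16, 2.66 and 2.23 in high fat pups, and the glutamate carrier Slc25a18 was at 3.13, 2.27 and 2.87 against 1.64, 1.99 and 1.27. All of these values lie below the limit of 5.83. The testis ADP/ATP carrier Slc25a31, Slc25a41, Slc25a53, Ucp1 and Ucp3 overlapped between the diets. Just above the limit was Slc25a27, at a mean of 6.15, and just below it Ucp3.

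A total of 11 of the 32 tested carriers, 34.4%, had a 95% interval inside 1.5-fold either way, against 41.3% of all genes. These data thus bound the change on the brightest probe set of these members, Slc25a5 and Slc25a39 among them, and leave a wider range for the rest. More than 1 probe set lay above the limit for 10 carriers, and in 4 of them the sets differed in sign. These 4 were Slc25a23, Slc25a36, Slc25a39 and Slc25a46, and all of them are among the 11. Their dimmer sets above the limit were at 0.15, 0.34, 0.028 and 0.41, so the interval of the brightest set does not cover the gene as a whole.

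**Figure D4:**
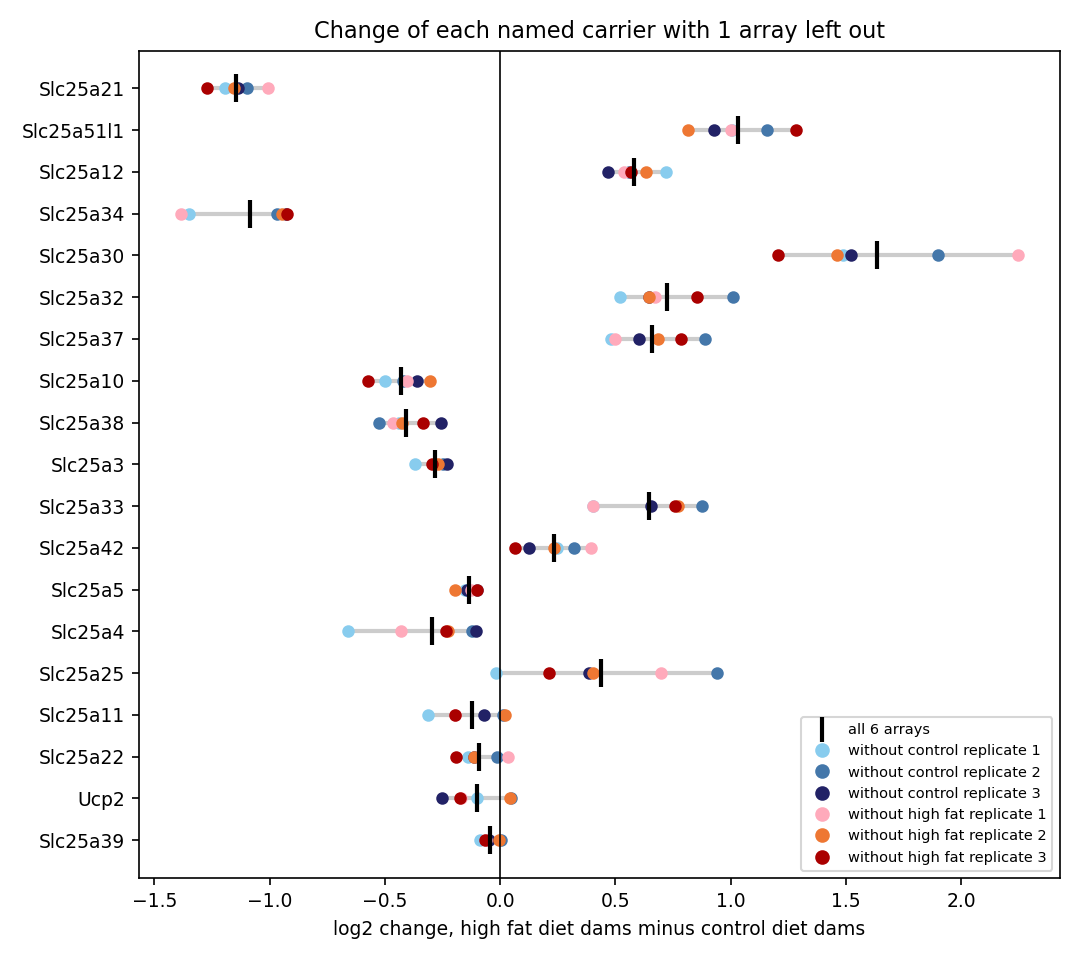
Log2 change of the 19 carriers given by array, with all 6 arrays (black bar) and with each array left out in turn (coloured points), ordered by the unadjusted p with the smallest at the top. Points lie on both sides of 0 only for Slc25a11, Slc25a22, Slc25a25, Slc25a39 and Ucp2, and those of Slc25a25 run from -0.017 to 0.94. Slc25a21, Slc25a51l1, Slc25a12 and Slc25a34 also kept an unadjusted p under 0.05 in limma with each array left out.

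Genes that work beside the carriers were read in the same fit. Of the 4 carriers left out by the rule, the citrate carrier Slc25a1 was lower, at -0.47 (SE 0.14, limma adjusted p = 0.250), with separate groups, while citrin, Slc25a13, was at -0.17, Slc25a15 at -0.026 and Slc25a20 at 0.13. The 4 enzymes of the malate-aspartate shuttle were all lower, with a median of -0.32, and only Mdh1, the cytosolic malate dehydrogenase, was at an unadjusted p under 0.05, at -0.41 (SE 0.13, limma adjusted p = 0.258). The cytosolic aminotransferase Got1 was at -0.75 (SE 0.33). Slc25a12, whose product serves the same shuttle, was on the other side at 0.58.

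Import of carriers into the inner membrane runs through the TOM pore, small TIM chaperones and the TIM22 complex. None of the 16 genes of that list reached an unadjusted p under 0.05, 7 being higher and 9 lower, with a median of -0.015. The receptor Tomm70, which recognises carrier precursors, was at 0.26 (SE 0.15) and Tomm20 at 0.27 (SE 0.14), and Timm8b at -0.34 (SE 0.15). Pyruvate carriers and outer membrane channels had a median of -0.070 over 8 genes and none at that p, with Mpc1 at -0.25 and Mpc2 at 0.31. The 4 sideroflexins measured had a median of -0.12, and none was at that p.

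Transcripts of matrix proteins, listed as markers of mitochondrial content, had no common direction. The content itself was not measured. The 13 matrix genes had a median of -0.006, with 6 higher and 7 lower, and Idh3g, a subunit of isocitrate dehydrogenase, at -0.50 (SE 0.16, unadjusted p = 0.0180, limma adjusted p = 0.276). Of 11 regulators of mitochondrial biogenesis, 8 were higher, with a median of 0.23. Tfb1m, a methyltransferase of mitochondrial ribosomal RNA, was at 0.42 (SE 0.13) and Gabpb1 at -0.54 (SE 0.21), both at an unadjusted p under 0.05. Ppargc1b was at 0.63 (SE 0.39).

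Enzymes next to Slc25a21, Slc25a32 and the iron and glycine carriers were listed after the carriers' values had been seen. Of 6 genes of lysine breakdown beside Slc25a21, 5 were lower, with a median of -0.093, and Aass, which begins that pathway, was at -0.56 (SE 0.13, limma adjusted p = 0.189). Of 5 measured genes of mitochondrial folate and FAD metabolism beside Slc25a32, 2 were higher and 3 lower, with a median of -0.021. Mthfd2, a folate enzyme of the matrix, was at 6.23, 6.46 and 6.20 in controls and 7.56, 7.81 and 7.45 in high fat pups, a difference of 1.31 (SE 0.15, limma adjusted p = 0.0965). Flad1, which makes FAD, was at -0.50 (SE 0.19). Of 9 genes of haem and iron-sulfur cluster synthesis, 4 were higher and 5 lower, with a median of -0.0069, and none was at an unadjusted p under 0.05.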

How the data were processed

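The deposited values are log2 signals of 31099 probe sets on 6 arrays. The authors had scaled each array as a whole, since the 2% trimmed mean of the unlogged values is the same on all arrays, while the program that summarised the probes was not given in the sources used here. Per the labels' protocols, biotin-labelled cRNA was made from total RNA with a 3' IVT kit. The arrays' quartiles over all these probe sets differed by up to 0.22, so the values were quantile normalized after 57 control probe sets were left out. Of 31042 probe sets, 20826 were paired with 1 gene, 436 with several and 9780 were unnamed here, and 20758 matched the current gene table.

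Each gene was read from its brightest probe set, and the lowest 40% of probe sets by mean were left out. High fat and control diets were compared with lmFit and eBayes in limma 3.58.1 (R 4.3.3), with Benjamini-Hochberg adjustment over all 10372 genes, and the code was tested on simulated data. An exact permutation test of 3 arrays against 3 cannot go below p = 0.1 and was not used.

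Carriers at an unadjusted p under 0.05 and a preset list of well-known ones are given by array, and the others by their change. Of the other lists, up to 3 genes with the smallest p are named, and all 4 carriers left out by the rule. Members and lists were chosen with earlier results of these data known, and the partner lists after the carriers' values had been seen. Slc25a47 and the protein sequences were not analysed here. Promoters came from a RefSeq table of build GRCr8, which held 33 of the 39 members. Python 3.11.15 with matplotlib 3.10.9 was used for the plots.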

Additional observations from a re-analysis of the deposited data

How the results depend on the processing

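The number of arrays limits the precision. The count of carriers with a limma adjusted p under 0.05 was 0 under every alternative run (8 at an unadjusted p under 0.05 with the main settings). Over all genes, the adjusted count of 4 became 1 with no brightness filter and with the lowest 20% left out, 8 with a trend in limma's variance, 0 with the replicate block and 0 with the RNA integrity covariate, and 0 to 4 with 1 array left out. The carriers at an unadjusted p under 0.05 numbered 5 with array weights, 4 with the integrity covariate, 5 with high fat arrays 1 and 3 both left out (the lone high fat array is then assumed to vary like the controls), and 4 to 10 with 1 array left out. Those higher numbered 3 with no filter, 3 with array weights, 2 with the integrity covariate, 2 without high fat arrays 1 and 3, and 2 to 7 with 1 array left out. Those lower numbered 5 with the trend and 2 to 6 with 1 array left out. The trend in limma added Slc25a3 (unadjusted p = 0.0214) and Slc25a38 (unadjusted p = 0.0466) to those lower. The carriers' median of -0.078 was 0.052 with the integrity covariate and -0.10 to 0.012 with 1 array left out.

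With the integrity covariate, the sign turned for Slc25a4 (0.0061) and Slc25a11 (0.048). With 1 array left out it turned for Slc25a25 (-0.017 without control replicate 1), Slc25a11 (0.013), Slc25a39 (0.004) and Ucp2 (0.049) without control replicate 2, Slc25a22 (0.032 without high fat replicate 1), and Slc25a11 (0.0225) and Ucp2 (0.044) without high fat replicate 2. Over all arrays left out in turn, these carriers ran from -0.31 to 0.0225 (Slc25a11), -0.19 to 0.032 (Slc25a22), -0.017 to 0.94 (Slc25a25), -0.088 to 0.004 (Slc25a39) and -0.25 to 0.049 (Ucp2). The cause was not tested. Deviations from the group means correlated at r = -0.128, -0.127 and -0.136 between same-numbered arrays of the 2 diets. Between arrays of different number, r was 0.043 to 0.082. With 3 arrays per diet, these values cannot tell whether same-numbered arrays shared more than a number. With the replicate block, 6 carriers were at an unadjusted p under 0.05.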
